A study of Mus musculus with 2 samples.

Results

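Cluster 13 was 1 of the 10 clusters that the authors named bipolar cells (BC) in single-cell RNA sequencing data from mouse retina. Its members were all cells with the deposited cell type BC and the deposited cluster number 13, which gave 504 of 5743 BC and of 30943 cells in all. Of these, 270 cells came from the Ptbp1-Ctrl library and 234 from the Ptbp1-KO library. Each library was made from 1 mouse, 30 days old, and both mice carried the Chx10-Cre transgene. The Ptbp1-Ctrl mouse (Chx10Cre) had intact Ptbp1, and the Ptbp1-KO mouse (Chx10-Cre;Ptbp1lox/lox) was homozygous for an allele whose promoter and first exon lie between loxP sites. Chx10-Cre drives Cre in retinal progenitors, so the deletion was not limited to BC and any retinal cell that descends from them could carry it. PTBP1 binds RNA and keeps neuronal exons from being spliced in outside neurons. The comparison asks whether its loss in progenitors left a trace in this group of mature neurons.

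Bipolar cells are the interneurons that carry signals from photoreceptors to amacrine and ganglion cells. They are divided into rod bipolar cells, which connect to rods, and many types of cone bipolar cells. ON bipolar cells sense the fall in glutamate at light onset through the metabotropic receptor mGluR6 (Grm6), whose G protein keeps the cation channel TRPM1 (Trpm1) shut in the dark. OFF bipolar cells use ionotropic glutamate receptors, among them the kainate receptor subunit GluK1 (Grik1). The type 5 cone bipolar cells are a group of ON types that are told apart by genes such as Chrm2, Slitrk5, Sox6 and Lrrtm1.

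The values are unique molecular identifiers (UMIs), each of which stands for 1 captured transcript, summed over the cells of a library and given as CPM, that is, scaled to a total of 1000000 UMIs. CPM values are compared between cells for the same gene, not between genes. Cluster 13 held 763267 UMIs in the Ptbp1-Ctrl library and 940405 in that of Ptbp1-KO, with medians of 2619 and 3749.5 UMIs per cell, so its Ptbp1-KO cells were deeper. With 1 library per genotype there was no replicate check and no test was run. Genotype, animal, dissociation and library cannot be told apart. The 95% intervals in parentheses are exact and cover counting error only. A gene with no UMI can still lie as high as 3.93 CPM for Ptbp1-Ctrl and 3.19 CPM for Ptbp1-KO, the level of 3 UMIs. Pairs of values without labels are given in the order Ptbp1-Ctrl, Ptbp1-KO.

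The targeted gene was examined first. Ptbp1 (chr10:79854427-79864771 of mm10, plus strand) had 13 UMIs in cluster 13 of Ptbp1-Ctrl and 1 UMI in Ptbp1-KO, or 17.03 CPM (9.07 to 29.1) in the Ptbp1-Ctrl and 1.06 CPM (0.0269 to 5.92) in the Ptbp1-KO library. The log2 ratio of Ptbp1-KO over Ptbp1-Ctrl was −4.00 (−9.41 to −1.27), and the other BC had 191 and 0 UMIs, which follows the labels. The kit reads 3′ ends, which lie outside the deleted promoter and exon, so this is a level of transcript and not a reading of the deletion. Sex did not follow the study's text, which describes female mice. Cluster 13 had no UMI of the X-linked transcript Xist in either library, and the Y-linked gene Uty stood at 209.6 and 206 CPM and Eif2s3y at 195 and 189 CPM. Each genotype therefore has the transcripts of a male, and the sexes of the libraries do not differ by these genes. The libraries shared 63 cell barcodes over all cells, of which 1 lay in cluster 13 in both. Rod transcripts were present in every BC cluster, and the 7 rod markers summed to 6891 CPM in cluster 13 of Ptbp1-Ctrl and 5061 CPM in Ptbp1-KO, against 7266 and 6680 CPM in the mean of the other BC clusters. The marker lists of amacrine, ganglion and horizontal cells and of microglia and blood each summed to at most 26.6 CPM in cluster 13. That of Müller glia reached 216 and 191 CPM.

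Cluster 13 was bipolar by its pan-bipolar genes. Otx2, a homeobox gene of photoreceptors and bipolar cells, stood at 559 CPM in the Ptbp1-Ctrl and 641 CPM in the Ptbp1-KO library, and Neurod4, a bHLH factor of bipolar cells, at 1361 and 1248 CPM. Both were higher than in any of the other 9 BC clusters. Lhx4, a LIM-homeobox gene, stood at 373 and 366 CPM. Secretagogin (Scgn), a calcium-binding protein of cone bipolar cells, was also highest here, at 812 CPM (749.6 to 879) in the Ptbp1-Ctrl and 886 CPM (827 to 948) in the Ptbp1-KO library, which was 1.59 and 1.51 (log2) over the mean of the other BC clusters. After each cell had been thinned to 1000 UMIs, Scgn was seen in 55.6% (49.4 to 61.6) and 64.1% (57.6 to 70.2) of cells, against 0.559% and 1.54% of rods thinned in the same way. Rods were taken as the cells that should lack these genes. All 5 pan-bipolar markers reached 100 CPM in both libraries. The median log2 over the other BC clusters was 0.07 for all 1956 genes that did so.

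The genes of the ON pathway were present. Grm6 (chr11:50850685-50866208, plus strand) had 184 and 200 UMIs, or 241 CPM (207 to 279) in the Ptbp1-Ctrl and 213 CPM (184 to 244) in the Ptbp1-KO library, somewhat under the 343 and 327 CPM of the other BC clusters. Thinned to 1000 UMIs, Grm6 was seen in 18.3% (13.8 to 23.4) and 20.1% (15.1 to 25.8) of cells and in 0.830% and 0.567% of rods. Isl1, a LIM-homeobox gene of ON bipolar cells, stood at 474 and 482 CPM. The OFF cluster richest in Grik1, cluster 18, had 22.5 CPM of Isl1 and 17.5 CPM of Grm6. Gnb3 and Gng13, the G protein subunits that work with Grm6, stood at 1146 and 1087 CPM and at 2391 and 3385 CPM, and Pcp2, a modulator of G proteins, at 2965 and 2459 CPM. Of the 10 ON markers 7 reached 100 CPM in both libraries and 1 of them, Trpm1, was at least 2-fold lower than in the other BC clusters in both libraries. Among all 2066 genes that reached 100 CPM in the other clusters 6.05% were that much lower, and 4.24% of the 1956 that reached it in cluster 13 were that much higher. Nyx (65.5 and 73.4 CPM), Rgs11 (73.4 and 92.5 CPM) and Lrit3 (4 and 4 UMIs) stayed under that level.

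Trpm1 (chr7:64153835-64269775, plus strand) was the exception among the ON genes. It stood at 145 CPM (119.6 to 175) in the Ptbp1-Ctrl and 163 CPM (138 to 191) in the Ptbp1-KO library, whereas the mean of the other BC clusters was 1277 and 1376 CPM. The log2 ratios of −3.13 and −3.08 placed cluster 13 9th of 10, just above the OFF cluster 18 (147 CPM). Grm6-bearing clusters such as 11 and 12 had 1707 and 955 CPM. Rgs7, a GTPase-activating protein of the same cascade, was also low, at 145 and 129.7 CPM against 814 and 804 CPM. Of the 12 genes of the mGluR6 cascade 8 reached 100 CPM, none was at least 2-fold higher in cluster 13 and these 2 were at least 2-fold lower. The Trpm1 transcripts of cluster 13 were not spread evenly over its cells, as described below for its 2 kinds of cells.

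The upstream sequences of Grm6 and Trpm1 are shown because receptor and channel act in 1 cascade, and yet their transcripts were distributed differently within the cluster. They were taken from RefSeq (build GRCm38.p6, the reference behind mm10) and run 5′ to 3′ on the plus strand over the 250 bases before the annotated start. For Trpm1 the first of its 2 annotated starts is shown. Capitals mark TAATCC or, on the other strand, GGATTA, the core of the motif of OTX2 and CRX.
Grm6, chr11:50850435-50850684: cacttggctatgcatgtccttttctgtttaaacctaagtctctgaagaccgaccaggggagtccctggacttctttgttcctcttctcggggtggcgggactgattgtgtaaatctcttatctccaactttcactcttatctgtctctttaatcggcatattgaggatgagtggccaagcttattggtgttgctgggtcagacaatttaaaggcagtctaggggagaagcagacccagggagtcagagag
Trpm1, chr7:64153585-64153834: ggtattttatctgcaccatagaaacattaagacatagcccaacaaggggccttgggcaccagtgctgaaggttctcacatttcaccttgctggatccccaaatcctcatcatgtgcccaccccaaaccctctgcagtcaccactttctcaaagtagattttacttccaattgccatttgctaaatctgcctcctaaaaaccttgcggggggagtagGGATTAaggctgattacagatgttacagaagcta
The Trpm1 window held this core 1 time, on the minus strand, and the Grm6 window did not hold it. The window before the second Trpm1 start, which overlaps annotated exons, did not hold it either. Among the windows of Isl1, Chrm2 and Slitrk5, those of Isl1 and Chrm2 held it 1 time each and that of Slitrk5 did not. Of all 32851 windows of this length 6.25% held it. Neither the Grm6 window nor the first Trpm1 window held TAATTA, a homeodomain core found in 4.84% of windows. A match here is a match of letters in a window and was not measured as binding.

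Of the markers of other bipolar classes, 1 of 5 listed for OFF cells and 4 of 7 listed for rod bipolar cells reached 100 CPM in both libraries. Grik1 had 41 and 106 UMIs, or 53.7 and 113 CPM, against 10234 CPM in cluster 18. Thinned to 1000 UMIs it was seen in 1.49% and 3.85% of cluster 13 cells and in 1.49% and 1.43% of rods. Tacr3, the neurokinin receptor of some OFF types, had no UMI in either library, and Vsx1, a homeobox gene of several cone bipolar types, had 1 and 0 UMIs. The OFF markers Fezf2 and Neto1 had 3 and 2 UMIs and 1 and 4 UMIs, and Gria1, an AMPA receptor subunit, was the only OFF marker to reach 100 CPM in both libraries (211 and 224 CPM). Prkca, the classic rod bipolar marker, stood at 535 and 464 CPM, whereas the clusters richest in it, 10 and 5, had 8041 and 6827 CPM. Bhlhe23, a bHLH factor listed for rod bipolar cells, was highest in cluster 13 of all 10 clusters, at 223 and 223 CPM. Car8 (200.5 and 195 CPM) and Rpa1 (117 and 140.4 CPM), also listed for rod bipolar cells, were near the 214 and 211 CPM and the 109.7 and 136 CPM of the other BC clusters. On Scgn, the ON markers and the levels of Grik1 and Prkca the cells are ON cone bipolar-like. Of the 5 markers listed for the cluster, Scgn and Grm6 were clear, Trpm1 and Grik1 were low, and Vsx1 was at the floor.

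**Figure D1:**
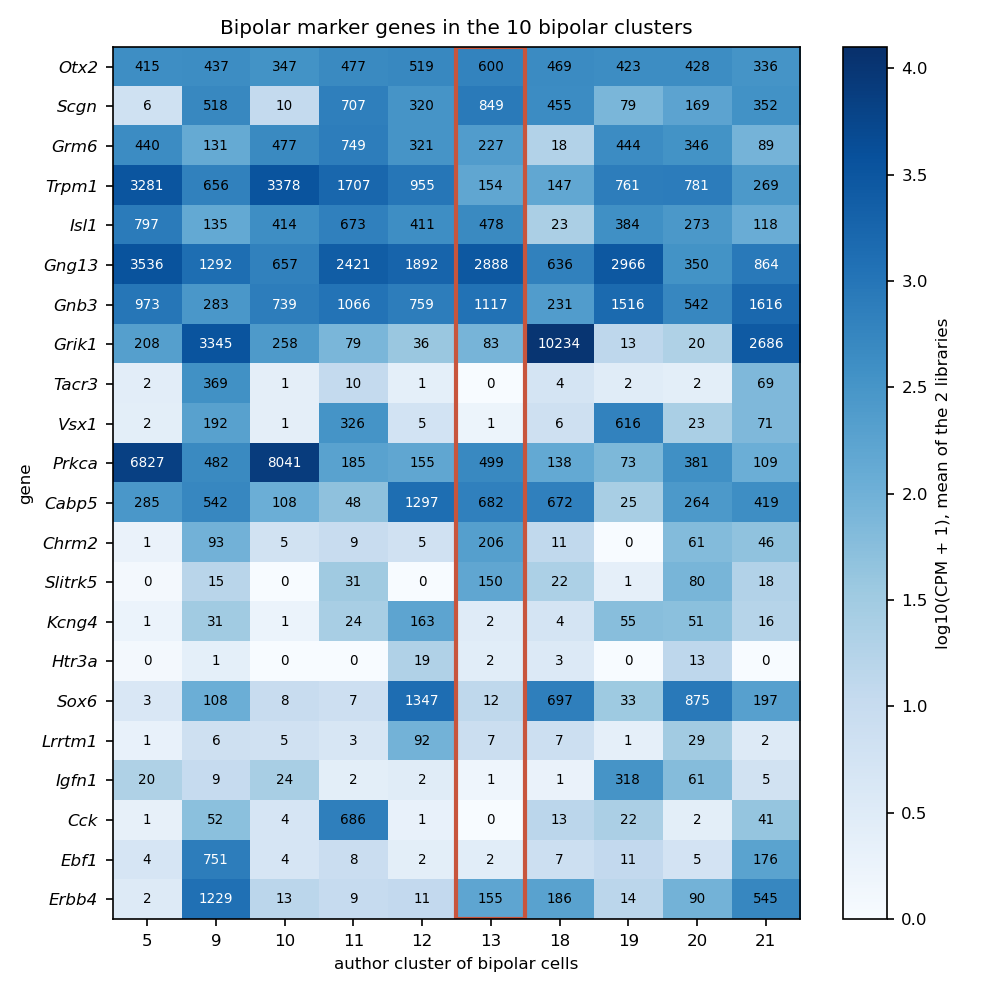
Mean CPM over the 2 libraries of 22 marker genes (rows) in the 10 bipolar clusters (columns), with the colour on a log10(CPM + 1) scale and cluster 13 outlined. Scgn is highest in cluster 13 at 849 CPM, Chrm2 and Slitrk5 are highest there at 206 and 150.2 CPM, and Trpm1 is at 154 CPM beside 147 CPM in the OFF cluster 18.

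The markers of the type 5 cone bipolar cells gave a mixed picture. Chrm2 (chr6:36388084-36528414, plus strand), the M2 muscarinic acetylcholine receptor listed for type 5B, stood at 255 CPM (221 to 294) in the Ptbp1-Ctrl and 157 CPM (133 to 185) in the Ptbp1-KO library, followed by 92.8 CPM in cluster 9. Slitrk5 (chr14:111675097-111683141, plus strand), a synaptic adhesion protein listed for type 5C, stood at 164 CPM (136 to 195) in the Ptbp1-Ctrl and 137 CPM (115 to 163) in the Ptbp1-KO library, followed by 80.1 CPM in cluster 20. Both were therefore highest in cluster 13, with log2 ratios over the other BC clusters of 3.16 and 2.72 for Chrm2 and 3.16 and 2.78 for Slitrk5. Cabp5, a calcium-binding protein shared by several types, stood at 656 and 707 CPM. Kcng4, a potassium channel subunit listed for all type 5 cells, had only 0 and 4 UMIs, and Htr3a, a serotonin receptor subunit, 1 and 2 UMIs. Sox6 (4 and 18 UMIs), the transcription factor listed for type 5A, and Lrrtm1 (3 and 10 UMIs), listed for type 5D, were near 0 here and at 1347 and 91.5 CPM in cluster 12, which also had 163 CPM of Kcng4. Of the 4 markers of 5B 2 reached 100 CPM in both libraries, and of the 3 of 5C also 2, so no type 5 name is given to the cluster. None of the 3 markers listed for type 6 reached 100 CPM, and Cck among them had no UMI in either library. Of the 5 listed for type 7, the general ON genes Grm6, Trpm1 and Isl1 reached it, and Igfn1 had 0 and 1 UMIs.

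The profile of cluster 13 was most like that of cluster 12 (Pearson's r of 0.841 over 5784 genes past a minimum of 50 CPM, on the log2(CPM + 1) scale), followed by cluster 20 (0.817) and cluster 18 (0.787). The Prkca-rich cluster 10 was least like it (0.652). These values are across genes, which are not independent, and the clusters share the same 2 libraries. Cluster 20 was shallow, with medians of 1579 and 1891 UMIs per cell.

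The genes that set cluster 13 apart were described by their level over the mean of the other 9 BC clusters. They take part in defining the cluster, so no test applies. Of 1956 genes with at least 100 CPM in cluster 13 in both libraries, 83 (4.24%) were at least 2-fold higher there in both. Of 2066 genes with that level in the other clusters, 125 (6.05%) were at least 2-fold lower. The 20 highest genes were all higher in cluster 13 than in any of the other clusters, by 1.10 to 4.77 times the next one, and for 15 of them the next one was cluster 20.

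Several of the 20 encode secreted or synaptic proteins. Vwc2 (200.5 and 190.3 CPM) and Vwc2l (723 and 755 CPM) encode related secreted proteins with von Willebrand factor C domains, and Vwc2 is an antagonist of BMP signals. Sema3e, a guidance cue of the semaphorin family, stood at 407 and 426 CPM against 62.7 and 40.4 CPM in the other clusters. C1ql3, a secreted synaptic organizer, stood at 151 and 152 CPM, and Igfbp4, which binds insulin-like growth factors, at 143 and 118 CPM. Brinp3 had the largest ratio of all by the smaller of its 2 values, with 343 CPM in the Ptbp1-Ctrl and 356 CPM in the Ptbp1-KO library against 28.9 and 30.0 CPM (log2 3.54 and 3.55).

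Some receptor genes were also among the 20. Beside Chrm2, the cluster led in Chrna7, the α7 nicotinic acetylcholine receptor subunit, with 283 CPM in the Ptbp1-Ctrl and 298 CPM in the Ptbp1-KO library, although cluster 20 had 263 CPM. Gabrr3, the ρ3 subunit of ionotropic GABA receptors, stood at 535 and 462 CPM against 108 and 94.6 CPM. Its relative Gabrr2 was at 20.96 and 26.6 CPM in cluster 13 against 489 and 459 CPM, and Gabrr1 at 170.3 and 206 CPM against 198 and 197 CPM. The 3 rho subunit genes thus differed, with Gabrr3 high, Gabrr2 lowest of the 10 clusters and Gabrr1 4th of 10. Of 17 GABA and glycine receptor genes 7 reached 100 CPM in cluster 13, and 1 of them was at least 2-fold higher. Of the 8 that reached it in the other clusters 1 was at least 2-fold lower. Over all genes these shares were 4.24% and 6.05%.

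The gene seen in the most cells among the 20 was Adarb2, which encodes a brain member of the ADAR RNA-editing family. It stood at 2838 CPM (2719.5 to 2959.9) in the Ptbp1-Ctrl and 3629 CPM (3509 to 3753) in the Ptbp1-KO library, with a UMI in 94.8% and 97.9% of cells. The other clusters averaged 351 and 429 CPM, and cluster 20 came next at 1317 CPM. Thinned to 1000 UMIs, Adarb2 was still seen in 83.6% and 86.8% of cells, against 0.508% and 0.648% of rods. Plxdc2 (651 and 689 CPM), Nwd2 (751 and 758 CPM), Tmem200a (612 and 475 CPM) and P3h2, a collagen prolyl hydroxylase (444 and 557 CPM) were also among them. The rest of the 20, March3, Ddit4l, Vstm2a, Ppp4r4 and Pip4k2a, lay between 113 CPM (Ppp4r4, Ptbp1-Ctrl) and 174 CPM (Vstm2a, Ptbp1-KO).

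The 15 lowest genes had at most 70.2 CPM in cluster 13, and 5 of them were lower there than in any other BC cluster. Besides Vsx1 they included the transcription factor Ebf1 (1 and 2 UMIs, 751 CPM in cluster 9), the guidance cue Slit2 (4 and 18 UMIs, 6049.7 CPM in cluster 9) and the extracellular matrix protein Reln (1 and 10 UMIs, 1648 CPM in cluster 19). The adhesion genes Ntng1 (7 and 12 UMIs) and Sdk1 (9 and 10 UMIs) were among them, as was the acid-sensing ion channel gene Asic2 (8 and 11 UMIs against 729 and 733 CPM in the other clusters). Lrrtm4, a synaptic adhesion gene, stood at 44.5 CPM in the Ptbp1-Ctrl and 70.2 CPM in the Ptbp1-KO library, and 4.44% and 4.70% of cells had a UMI of it. Pde1a, Nebl, Slc24a4, Il1rapl2, Kalrn and A730046J19Rik were also among the 15, each with 1 to 26 UMIs in a library.

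**Figure D2:**
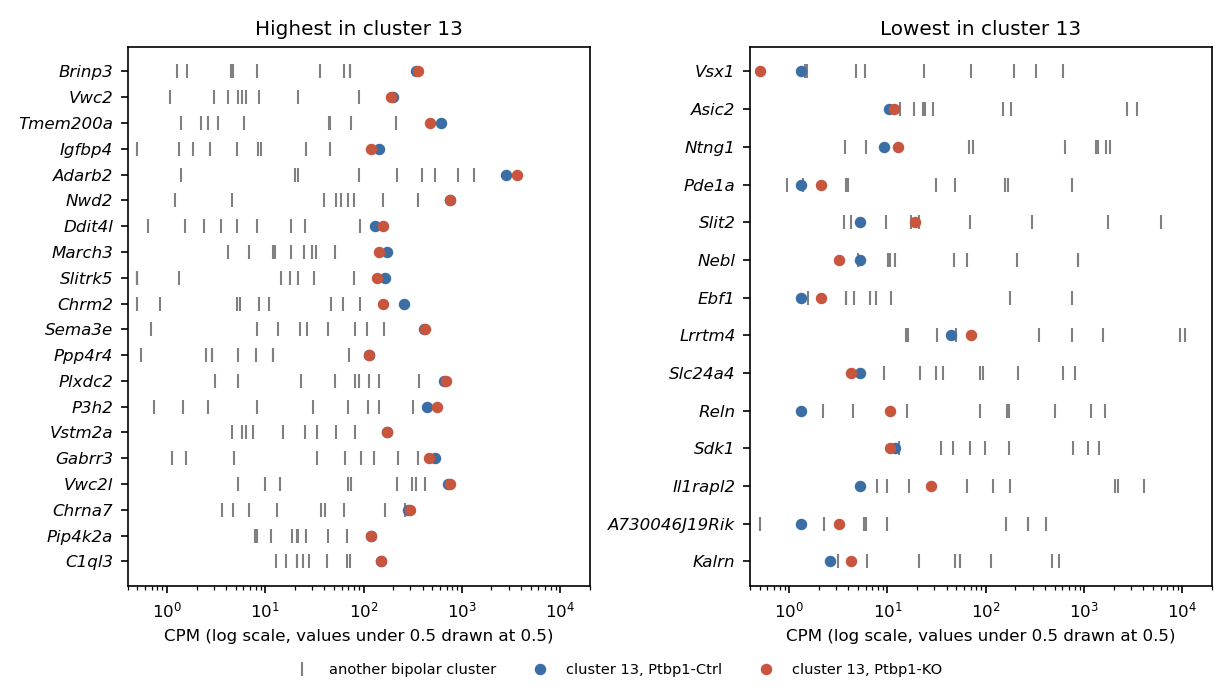
CPM (log scale) of the 20 highest (left) and 14 of the 15 lowest (right) genes of cluster 13 against the mean of the other bipolar clusters, with coloured points for cluster 13 in the 2 libraries and grey ticks for the mean of both libraries in each of the other 9 clusters. The 2 libraries lie close together for most of the 20 highest genes, and Adarb2 reaches 2838 and 3629 CPM.

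Lists of genes by function were read in the same way. Of 28 bipolar transcription factors 10 reached 100 CPM in cluster 13, and 4 of them were at least 2-fold higher there, namely Bhlhe23, Neurod4, St18 (736 and 839 CPM) and Nfib (625 and 582 CPM). Of the 17 that reached 100 CPM in the other clusters, 8 were at least 2-fold lower, including Zfhx3 (3 and 13 UMIs), Six3 (1 and 11 UMIs) and Sox6. Of 23 adhesion genes 10 reached 100 CPM, and 4 were at least 2-fold higher. Besides Slitrk5 these were the cadherin Cdh11 (1133 and 1078 CPM) and the contactins Cntn5 (6863 and 6866 CPM) and Cntn4 (3157 and 2910.4 CPM). Of the 18 adhesion genes that reached 100 CPM in the other clusters, 10 were at least 2-fold lower in cluster 13, among them Lrrtm4, Sdk1 and Nlgn1 (145 and 132 CPM against 532 and 498 CPM). Against the backgrounds of 4.24% higher and 6.05% lower, both lists held more genes in both directions, but they had been chosen with earlier results of these data known.

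Genes of the release machinery had a summed level close to that of the other clusters. The list of 19 ribbon synapse genes summed to 13219 and 13572 CPM against 12257 and 12536 CPM in the other clusters. Of these genes 17 reached 100 CPM, and none was at least 2-fold higher or lower. Over all genes that reached this level 4.24% were that much higher and 6.05% that much lower. The lack of such genes in a list this short is near those shares. Among 24 voltage-gated channel genes 6 reached 100 CPM and 1 was higher, the sodium channel Scn1a (118 and 138 CPM against 28.8 and 26.9 CPM). Among 16 ionotropic glutamate receptor genes 4 reached 100 CPM and none was higher, while 3 were at least 2-fold lower, Grik1 and Neto1 among them. The 15 genes of calcium binding and modulation held 2 higher genes, Scgn and Chrm2, and 3 lower ones, Prkca, Pde1a and Prkcb.

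Cells of cluster 13 with Chrm2 and cells with Slitrk5 were mostly different cells. Over both libraries 149 cells had a Chrm2 UMI and 151 a Slitrk5 UMI, but only 5 had both and 209 had neither. Slitrk5 was seen in 3.36% of cells with Chrm2 (1.10 to 7.66) and in 41.1% of cells without it (36.0 to 46.4). The pattern was present in each library, with 76 Chrm2 cells, 78 Slitrk5 cells and 2 with both in Ptbp1-Ctrl, and 73, 73 and 3 in Ptbp1-KO. Cells with Chrm2 alone and with Slitrk5 alone had medians of 3160.5 and 3569 UMIs, and those with neither 2910.

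Genes that went with each marker were chosen in Ptbp1-Ctrl and then read in Ptbp1-KO, whose cells had no part in the choice. In Ptbp1-Ctrl the cells with Chrm2 alone were compared with those with Slitrk5 alone, and the 12 genes with the largest ratio on each side were taken from genes of at least 100 CPM there. All 24 had the same direction in Ptbp1-KO. They were the genes with the largest ratios, and the share of all genes that kept their direction is not given here. Cabp5 had 1339 CPM in Chrm2 cells and 75.1 CPM in Slitrk5 cells of Ptbp1-Ctrl, and 1390.3 and 24.3 CPM in Ptbp1-KO. Kcnb2, which encodes the voltage-gated potassium channel Kv2.2, went the other way, with 23.0 and 2224 CPM in Ptbp1-Ctrl and 18.6 and 2790.2 CPM in Ptbp1-KO. The Chrm2 cells also carried Ndnf, a secreted neuron-derived factor, the protocadherin Pcdh7, the nuclear receptor Esrrg, Brinp3, Csmd3, Ptprm, Mgat4c, Kl, Rbp4 and 2 RIKEN transcripts. The Slitrk5 cells carried Kcnip4, which binds Kv4 channels, the calcium-binding protein gene Cabp2, Pcdh10, Igfbp4, the chemokine gene Cxcl12, B3gat1, Anks1b, Fgf12, Plpp3, Csmd1 and Lingo2.

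Each cell was then placed by the UMIs of these 24 genes, which left out Chrm2 and Slitrk5 themselves. A cell with at least 10 such UMIs was put on the Chrm2 side where at least 80% of them came from the 12 Chrm2-side genes, and on the Slitrk5 side where at most 20% did. These limits were set after the data were seen. In Ptbp1-Ctrl 112 cells (41.5%, 35.5 to 47.6) fell on the Chrm2 side and 119 (44.1%, 38.1 to 50.2) on the Slitrk5 side, and in Ptbp1-KO 105 cells (44.9%, 38.4 to 51.5) and 107 (45.7%, 39.2 to 52.3). Only 5 and 8 cells lay between the limits, and 34 and 14 had too few UMIs of the 24 genes. The Chrm2 side made up 48.5% of the placed cells of Ptbp1-Ctrl (41.9 to 55.1) and 49.5% of Ptbp1-KO (42.6 to 56.5), so no difference in the balance was detectable at this depth. The sides were of like depth, with medians of 2607 and 2784 UMIs in Ptbp1-Ctrl and 3803 and 3862 in Ptbp1-KO.

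**Figure D3:**
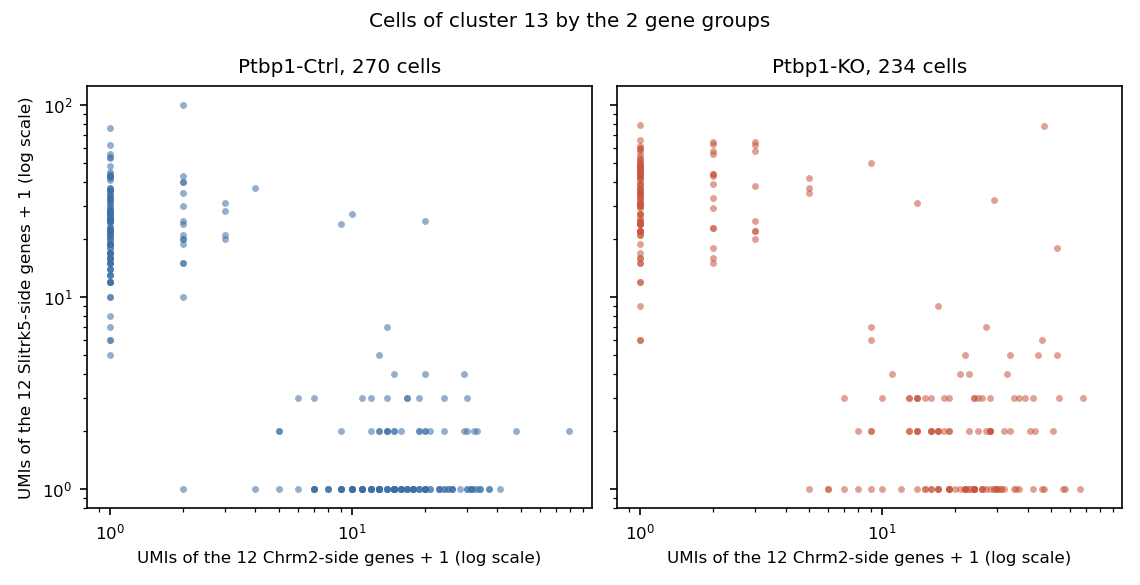
Each point is 1 cell of cluster 13, placed by its UMIs of the 12 Chrm2-side genes (x axis) and of the 12 Slitrk5-side genes (y axis), both plus 1 on log scales, for Ptbp1-Ctrl (left, 270 cells) and Ptbp1-KO (right, 234 cells). The cells form an upper left and a lower right group in both libraries, with 5 and 8 cells between the limits of 20% and 80%.

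Chrm2 and Slitrk5, which did not place the cells, followed the sides in Ptbp1-KO. There Chrm2 had 135 UMIs (324 CPM) on the Chrm2 side and 2 UMIs (4.55 CPM) on the Slitrk5 side, and Slitrk5 had 0 and 125 UMIs (284 CPM). Over all 2128 genes with a mean of at least 100 CPM on the 2 sides, 36 (1.69%) were at least 2-fold higher on the Chrm2 side in both libraries and 62 (2.91%) on the Slitrk5 side. These shares include the genes that set the sides. Of the 20 leading genes of the cluster, 3 were on the Chrm2 side by this rule (Brinp3, Ddit4l and Chrm2) and 7 on the Slitrk5 side (Vwc2, Tmem200a, Igfbp4, Slitrk5, Ppp4r4, Vwc2l and Pip4k2a). Of the 16 that had no part in setting the sides these were 1 and 5. Vwc2l had 102 and 106 CPM on the Chrm2 side and 1399.9 and 1454 CPM on the Slitrk5 side, and Ddit4l, an inhibitor of mTOR signalling, 264 and 295 CPM on the Chrm2 side and 8.27 and 20.5 CPM on the Slitrk5 side. The other 10, Adarb2, Nwd2, Sema3e and Gabrr3 among them, did not reach 2-fold in both libraries. Adarb2 had 3628 and 5259.6 CPM on the Chrm2 side and 2246 and 2474 CPM on the Slitrk5 side.

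Trpm1 divided along the sides, and Grm6 did not. Trpm1 had 24.8 and 31.2 CPM on the Chrm2 side and 270.1 and 264 CPM on the Slitrk5 side, a log2 ratio of the Chrm2 side over the Slitrk5 side of −3.44 (−4.70 to −2.41) in Ptbp1-Ctrl and −3.08 (−4.03 to −2.25) in Ptbp1-KO. On the Chrm2 side this rested on 8 and 13 UMIs, on the Slitrk5 side on 98 and 116. Grm6 had 239 and 197 CPM on the Chrm2 side and 242 and 239 CPM on the Slitrk5 side, with ratios of −0.02 (−0.48 to 0.44) in Ptbp1-Ctrl and −0.28 (−0.72 to 0.15) in Ptbp1-KO. Counting error spans 0 for Grm6 and lies far from it for Trpm1. Even the Slitrk5 side was below the 1277 and 1376 CPM of Trpm1 that the other BC clusters averaged.

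Rgs7 went the opposite way to Trpm1. It had 273 and 247 CPM on the Chrm2 side and 35.8 and 13.7 CPM on the Slitrk5 side, with ratios of 2.93 (2.08 to 3.89) in Ptbp1-Ctrl and 4.18 (3.01 to 5.66) in Ptbp1-KO. Each of these 2 genes was thus low on the side where the other was higher. The remaining genes of the cascade that reached 100 CPM, Gnao1, Gnb3, Gng13, Gpr179, Gnb5 and Grm6, were within 2-fold between the sides in at least 1 library. Isl1 had 388 and 381 CPM on the Chrm2 side and 568 and 587 CPM on the Slitrk5 side, and Scgn 781 and 875 CPM on the Chrm2 side and 807 and 903 CPM on the Slitrk5 side.

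The sides differed in other named genes. Among the transcription factors, Nfia had 912 and 895 CPM on the Chrm2 side and 49.6 and 66.0 CPM on the Slitrk5 side, and its paralog Nfib 198 and 156 CPM on the Chrm2 side and 1049.9 and 1026 CPM on the Slitrk5 side, so the 2 nuclear factor I genes were high on opposite sides. None of the other 8 factors that reached 100 CPM was 2-fold apart in both libraries. Rims1, a protein of the active zone, was higher on the Chrm2 side (571 and 585 against 220.5 and 225 CPM). Pcp4, a calmodulin-binding protein, was higher on the Slitrk5 side (515 and 348 against 1918 and 2135 CPM), as were Cntn4 (2139.7 and 1892 against 4379 and 4119 CPM) and the neuroligin Nlgn1 (74.4 and 57.6 against 204 and 191 CPM). Values before "against" are the Chrm2 side in Ptbp1-Ctrl and Ptbp1-KO. The 8 GABA and glycine receptor genes and the 5 splicing regulators that reached 100 CPM were not 2-fold apart in both libraries.

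**Figure D4:**
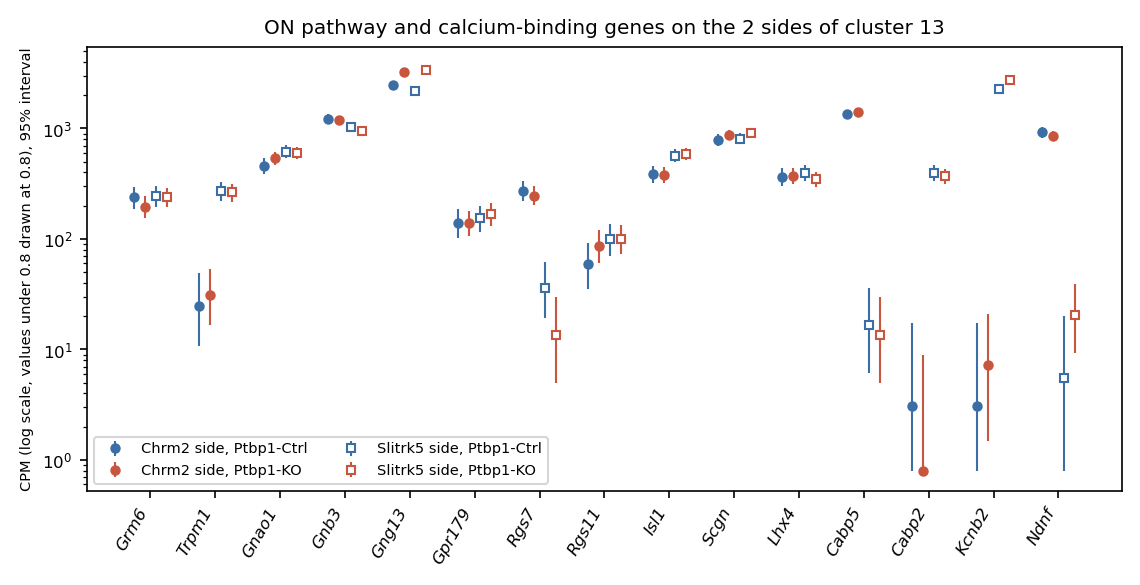
CPM (log scale, values under 0.8 drawn at 0.8) with 95% Poisson intervals of 15 genes on the Chrm2 side (filled circles) and the Slitrk5 side (open squares) of cluster 13 in Ptbp1-Ctrl (blue) and Ptbp1-KO (red). Grm6 and Scgn overlap between the sides, Trpm1 is near 25 to 31 CPM on the Chrm2 side and 264 to 270 CPM on the Slitrk5 side, and Rgs7 is reversed.

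A share of the cells in cluster 13 carried rod transcripts beyond the abundant ones. A set of 10 rod-enriched genes (March1, Rgs20, Pdzph1, Pex5l, Pla2r1, Sntg2, Gulp1, Dpf3, Wdr17 and Pbx3), chosen after the data were seen, had no UMI in 188 of the 504 cells. It exceeded 20 UMIs per 10000 in 74 cells of Ptbp1-Ctrl (27.4%, 22.2 to 33.1) and 59 of Ptbp1-KO (25.2%, 19.8 to 31.3). Only 21 cells lay between 10 and 30 per 10000. March1, a ubiquitin ligase gene, had 1297 CPM above the cut and 35.5 CPM below it, and Sag, which encodes rod arrestin, 3776 CPM above the cut and 813 CPM below it. Some bipolar genes were lower in the same cells, with Adarb2 at 2431 CPM above the cut and 3646 CPM below it and Isl1 at 374 CPM above the cut and 524 CPM below it, whereas Prkca was higher, with 689 CPM above the cut and 410.1 CPM below it. Rods themselves had 870 CPM of Prkca, 7.77 CPM of Adarb2 and 11.7 CPM of Isl1. The cells above the cut had a median of 3768 UMIs against 3007 below it, and a median doublet score (Scrublet) of 0.136 against 0.0268. In the other BC clusters 19.1% to 84.0% of cells were above the same cut, and on the 2 sides of cluster 13 27.7% and 25.2% were in Ptbp1-Ctrl and 21.9% and 27.1% in Ptbp1-KO. What these cells are was not tested, and the counts of genes between the libraries are also given without them.

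The share of BC in cluster 13 was 8.45% in Ptbp1-Ctrl (270 of 3194, 7.51 to 9.47) and 9.18% in Ptbp1-KO (234 of 2549, 8.09 to 10.4). The intervals overlap, and a difference was not detectable with these cells. Among genes with a mean of at least 100 CPM and at least 50 UMIs, 2136 in all, 21 (0.983%) were at least 1.5-fold higher in Ptbp1-KO and 30 (1.4%) at least 1.5-fold lower. The middle 90% of log2 ratios ran from −0.36 to 0.37. These are descriptions of 2 libraries, and how many would recur in other animals is unknown. Without the cells above the rod cut the counts were 39 and 57, of which 18 and 23 were shared with the first counts. With each cell thinned to 1000 UMIs, which leaves fewer UMIs per gene, the shares were 4.95% and 5.75% of 2121 genes.

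Malrd1, which encodes a protein with MAM and LDL receptor class A domains, had the highest ratio. It rested on 28 and 154 UMIs, or 36.7 CPM (24.4 to 53.0) in the Ptbp1-Ctrl and 164 CPM (139 to 192) in the Ptbp1-KO library, and the log2 ratio was 2.16 (1.57 to 2.79). In the other BC it was 0.57 (0.06 to 1.09), at 6.09 and 9.03 CPM. Ratios of the other BC are from UMIs pooled over all their cells. Cluster 13 had the most Malrd1 of the 10 clusters. A UMI of it was seen in 21 and 60 cells, and the cell with the most held 3 and 21 UMIs. The higher ratio lay on the Slitrk5 side, where Malrd1 had 16 and 135 UMIs or 44.1 and 307 CPM, a log2 ratio of 2.80 (2.05 to 3.65). On the Chrm2 side it had 10 and 18 UMIs and a ratio of 0.48 (−0.71 to 1.76), and the intervals of the 2 sides do not overlap. Erbb4, a neuregulin receptor, had 109 CPM in the Ptbp1-Ctrl and 202 CPM in the Ptbp1-KO library, a log2 ratio of 0.89 (0.51 to 1.28) against 0.01 (−0.07 to 0.10) in the other BC. Its ratios on the sides were 0.39 (−0.19 to 0.996) and 1.31 (0.77 to 1.88), which overlap. In thinned cells its ratio was 0.32.

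C130073E24Rik, a long intergenic noncoding RNA (chr8:50743291-50916997, minus strand), was higher in cluster 13 of Ptbp1-KO and lower in the pooled other BC. It had 79.9 CPM (61.1 to 103) in the Ptbp1-Ctrl and 152 CPM (128 to 179) in the Ptbp1-KO library, a log2 ratio of 0.93 (0.49 to 1.39), and the other BC gave −0.19 (−0.24 to −0.14). Celf4, an RNA-binding regulator of neuronal mRNAs, had a ratio of 0.72 against 0.23 in the other BC, Ap3m2, a subunit of the AP-3 sorting complex, 0.72 against 0.02, and Agtpbp1, a tubulin deglutamylase, 0.70 against 0.16. For other genes among the 12 highest the other BC were higher in Ptbp1-KO as well. Nmnat3, a mitochondrial enzyme of NAD synthesis, had 1.40 against 0.76, the hydrolase gene Abhd14b 1.21 against 1.35 and the ribosomal protein gene Rps18 0.69 against 0.53. Gm10800 (1.06 against 0.70) and Gm10801 (0.995 against 0.72) are neighbouring gene models on chromosome 2, and their values are uncertain because reads may be split between them.

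Several of the lowest ratios were close to those in the other BC. Gm47283, a gene model placed on the Y chromosome, had 1363 CPM in the Ptbp1-Ctrl and 279 CPM in the Ptbp1-KO library, a log2 ratio of −2.29 against −2.49 in the other BC. Cox7b, a subunit of cytochrome c oxidase, had −1.21 against −1.21, Rpl29, a ribosomal protein gene, −1.08 against −1.04, and Atp2c1, a calcium and manganese pump of the Golgi, −1.09 against −1.02. Srsf2, a splicing factor, had −0.77 against −0.63 and Erh −0.74 against −0.42. In contrast, Atf4, the transcription factor of the integrated stress response, had 152 CPM in the Ptbp1-Ctrl and 76.6 CPM in the Ptbp1-KO library (−0.99, −1.43 to −0.55) and −0.08 in the other BC. Spred1, an inhibitor of Ras signalling, was similar, with −0.86 (−1.24 to −0.48) and 0.08. Of the cluster's own markers, Chrm2 was past 1.5-fold, with a log2 ratio of −0.70 (−1.02 to −0.38) and −0.17 in the other BC, and the other 19 leading genes were not. On the Chrm2 side alone it was −0.70 (−1.04 to −0.37).

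Rod genes were among the lower ones. All 7 rod markers were below 0 in cluster 13, with a median log2 ratio of −0.45 against −0.01 over all 2136 genes, and 2 of them, Nr2e3 (−0.74) and Pdc (−0.60), were past 1.5-fold. Pde6g, the inhibitory subunit of rod phosphodiesterase, had 783 CPM in the Ptbp1-Ctrl and 470.0 CPM in the Ptbp1-KO library (−0.74 against −0.45 in the other BC), Guca1b, an activator of photoreceptor guanylate cyclase, 275 CPM in the Ptbp1-Ctrl and 140.4 CPM in the Ptbp1-KO library (−0.97 against −0.37), and Pdzph1 282 CPM in the Ptbp1-Ctrl and 162 CPM in the Ptbp1-KO library (−0.80 against −0.52). The formin Fhod3 had −0.96 against −0.49, which moved to −0.40 with thinned cells. Without the cells above the rod cut, Pde6g stood at −1.15, Guca1b at −1.65 and Fhod3 at −1.36. The summed rod markers ranged from 4419 to 12377 CPM over the other BC clusters, and no rod marker was at 0 in cluster 13. The part that rod RNA outside rods has in these ratios was not tested. Among the cone markers, Arr3 (6 and 39 UMIs) and Opn1sw (17 and 64 UMIs) lay higher in Ptbp1-KO, below the level for counting.

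**Figure D5:**
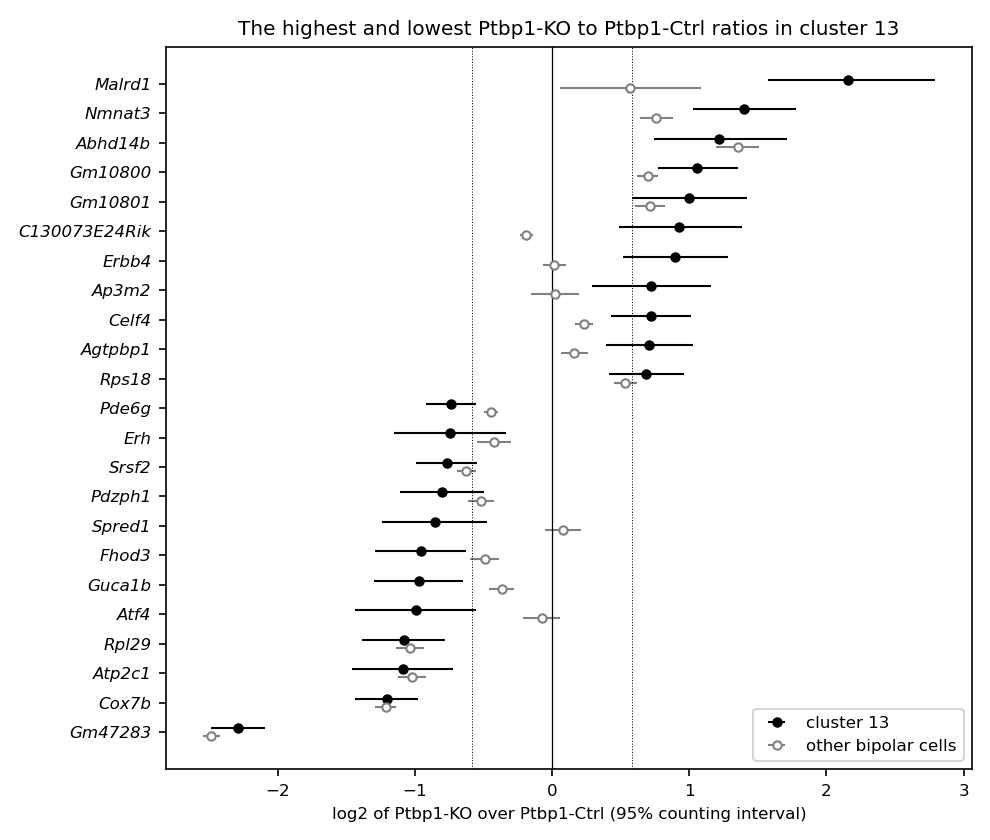
Log2 ratio of Ptbp1-KO over Ptbp1-Ctrl with 95% counting intervals for 11 of the 12 highest and the 12 lowest genes of cluster 13 (black), beside the same ratio in the other bipolar cells (grey open points), with dotted lines at 1.5-fold. Malrd1 reaches 2.16 in cluster 13 and 0.57 in the other cells, C130073E24Rik lies on opposite sides of 0, and Gm47283, Cox7b, Rpl29 and Atp2c1 lie together.

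None of the 7 ON markers counted was past 1.5-fold between the libraries. Of all 2136 genes counted, 0.983% were at least that much higher in Ptbp1-KO and 1.4% lower. The 7 ON markers counted had a median log2 ratio of 0.02 with Gng13 the highest at 0.50 (0.42 to 0.59), against 0.42 in the other BC. Trpm1 was at 0.16 (−0.20 to 0.53), Grm6 at −0.18 (−0.48 to 0.12), Isl1 at 0.02 (−0.18 to 0.23) and Scgn at 0.12 (−0.03 to 0.28). The 5 pan-bipolar markers had a median of −0.12. None of the 17 ribbon synapse genes counted passed 1.5-fold, with a median of 0.04. Of the 8 mGluR6 cascade genes, the 4 ionotropic glutamate receptor genes, the 8 GABA and glycine receptor genes, the 6 channels, the 10 transcription factors and the 10 adhesion genes counted, none passed it either. With 2.39% of all counted genes past it in either direction, counts of 0 in lists this short are near that share. Gabrb1, a GABA-A receptor subunit, had 70 and 27 UMIs and a log2 ratio of −1.68 (−2.37 to −1.02) against −0.06 in the other BC, but its mean of under 100 CPM kept it out of the counts. Grik1 was left out for the same reason, and single cells carried most of its UMIs. In Ptbp1-KO 2 cells held 85 of the 106 UMIs, and in Ptbp1-Ctrl 3 cells held 33 of the 41, so no ratio is read from it. On the Chrm2 side it had 2 and 48 UMIs, and on the Slitrk5 side 20 and 5. The same limit holds there, and no direction is read from these counts.

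Ptbp2, the neuronal paralog of Ptbp1, had 144 and 223 UMIs, or 189 CPM (159 to 222) in the Ptbp1-Ctrl and 237 CPM (207 to 270.4) in the Ptbp1-KO library. The log2 ratio of 0.33 (0.02 to 0.64) compares with −0.07 (−0.16 to 0.02) in the other BC, and thinned to 1000 UMIs Ptbp2 was seen in 14.6% (10.6 to 19.4) and 19.7% (14.8 to 25.3) of cells, with overlapping intervals. Of the 15 genes of the PTB family and neuronal splicing regulators, 5 were counted, all of them above 0 with a median of 0.33, and only Celf4 passed 1.5-fold. Of all 2136 genes counted, 1011 were above 0 and the median was −0.01. Nova1 stood at 0.38, Khdrbs3 at 0.22 and Srrm4 at 0.05. Of the 12 dissociation stress genes only 1 was counted, at −0.05.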

How the data were processed

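Retinas were dissociated with papain and captured with the 10x Genomics 3′ version 3.1 kit, which reads the 3′ ends of transcripts. Per the labels, the authors used mm10, Cell Ranger 7.0.1 and Seurat 4. The gene annotation and the use of intronic reads are not given in the sources used here. The deposited table held raw UMI counts of 25778 genes in 30943 cells, all within the authors' filter (over 200 and under 5000 genes, over 700 and under 10000 transcripts, under 20% mitochondrial). The deposited cell table gave the authors' cell type names, the mitochondrial percent of each cell and, as a score with no unit, the Louvain cluster number that the authors computed in Seurat. Reads of near-identical genes may be split.

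UMIs were summed per library and cluster and scaled by the total (CPM), so all values are relative. Intervals are exact Poisson for CPM, exact conditional binomial for ratios and Clopper-Pearson for shares, at 95%. A cluster was compared with the mean over the other 9 BC clusters within each library, with 0.5 UMIs added to each sum for the log2 ratio. Ratios of Ptbp1-KO over Ptbp1-Ctrl in the other BC were instead taken from UMIs pooled over all their cells. Scrublet (scanpy 1.11.5) marked 0 cells as doublets and so had not worked as a caller. Its scores were used as a ranking only, and no cell was removed as a doublet in the values given. Thinning to 1000 UMIs left out 2 cells of cluster 13 of Ptbp1-Ctrl and none of Ptbp1-KO. Genes named were Ptbp1 and Ptbp2, the listed markers and functional lists, the 20 highest and 15 lowest genes of the cluster and the 12 highest and 12 lowest Ptbp1-KO ratios, and, chosen after their values were seen, the genes of the 2 sides and the rod set. Some genes that the rule names are not reported here. Members and lists were chosen with earlier results of these data known. Gene positions are from GENCODE vM21 (mm10). Alternatives covered scaling (TMM in edgeR 4.0.16, size factors in DESeq2 1.42.0), depth, cells left out and minimum CPM. The ratio script was tested on simulated data. The study's test over cells was not used, because cells of 1 library are not replicates. Analyses ran in Python 3.11.15 and R 4.3.3.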

Additional observations from a re-analysis of the deposited data

Results flagged for a closer look

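C130073E24Rik had opposite directions in cluster 13 and in the pooled other BC. Its log2 ratio of Ptbp1-KO over Ptbp1-Ctrl was 0.928 in cluster 13 (0.49 to 1.39, 61 and 143 UMIs) and −0.19 in the other BC. Each direction rests on 1 library per genotype, and the difference was not tested. The mix of clusters in the pool differed between the libraries. Cluster 11 held 13.2% of BC in Ptbp1-Ctrl and 9.38% in Ptbp1-KO, and cluster 5 held 24.1% and 27.1%. The part that this mix has in the ratio of the other BC was not tested.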

How the results depend on the processing

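No paired analysis was possible because each genotype had 1 library and no test was run. Scaling by TMM or size factors gave 22 or 21 genes higher and 30 lower in Ptbp1-KO. Thinning to 1000 UMIs gave 105 higher and 122 lower, of which 11 and 20 were in the first counts of 21 and 30. A minimum of 50 CPM gave 94 and 86 of 4106 genes (2.29% and 2.09%), and one of 200 CPM gave 9 and 10 of 902 (0.998% and 1.11%). The first counts were 0.983% and 1.4% of 2136 genes. Alternatives chosen after seeing the data gave 39 higher and 57 lower without the cells above the rod cut, 51 and 71 on the Chrm2 side, and 64 and 70 on the Slitrk5 side. The larger counts under thinning and within a side come with fewer UMIs per gene. The numbers of genes past 1.5-fold therefore depended on these settings. Of 250 recomputed ratios of the 25 named genes other than Ptbp1, 19 left the interval of the first value and 0 changed direction. Against the other BC clusters, a minimum of 200 CPM gave 50 higher and 74 lower genes, and one of 50 CPM gave 196 lower genes. Of 175 recomputed ratios of the 35 leading and lacking genes, 54 moved and 0 changed direction. The share of cluster 13 was 1.64% and 1.61% of all cells, and 11.1% and 12.6% of BC outside the largest BC cluster. The Ptbp1 ratio stayed between −2.86 and −4.00 wherever both libraries had a UMI. On the Chrm2 side, and in the random draw of UMIs used for the thinned ratios, Ptbp1-KO had no Ptbp1 UMI and no ratio is given. In the separate draw used for shares of cells, 7 and 1 cells had one. Depth limits genes under about 50 UMIs most.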

Other observations

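Genes past 1.5-fold between the libraries in cluster 13 were unevenly placed. Of 117 counted genes on chromosome 9, 8 (6.84%) were past it, against 51 of 2136 (2.39%) overall. On chromosome M 2 of 12 were past it, both higher in Ptbp1-KO, and on chromosome 10 0 of 110. Within the stretch from Nmnat3 to Abhd14b (chr9:98287435-106452923), which was picked after the values were seen, 4 of 7 counted genes were past it, Nmnat3 and Abhd14b higher and Atp2c1 and Rpl29 lower. The 3 others, Faim, Stag1 and Tmem108, lay between −0.24 and −0.11. All 4 had the same direction in the other BC, with log2 ratios of 0.76 for Nmnat3, 1.35 for Abhd14b, −1.02 for Atp2c1 and −1.04 for Rpl29. No cause was tested.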
